A study of Mus musculus with 8 samples.

Results

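The genes described here encode proteins that coat, fuse or hydrolyse lipid droplets. They were the 10 genes Cidea, Cidec, Plin1, Plin2, Plin3, Plin4, Plin5, Pnpla2, Abhd5 and Lipe, chosen by symbol among the 31053 genes of the count table, of which 9619 had an adjusted p-value. All 10 had counts in every library, between 186 and 24585, and all 10 were tested. RNA was sequenced from brown adipose tissue (BAT) of C57BL6/J mice labelled as 8 weeks old, in 4 WT and 4 Cd36KO libraries. CD36 is a scavenger receptor that imports long-chain fatty acids. The labels give only the genotype. The study made a germline deletion as well as one driven by Csf1r-Cre in myeloid cells, and it presents its BAT transcriptome as that of the myeloid deletion. Its legend gives the labelled age and as many mice as there are libraries in each group, whereas its methods give a later age for those mice. The comparison asked how the BAT transcriptome differs when Cd36 is deleted. The labels themselves do not tie a library to an animal, and p-values measure the spread between these libraries.

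Brown adipocytes store triglyceride in many small lipid droplets and burn the fatty acids released from them. Perilipins coat the droplet and control which enzymes reach it. CIDE proteins sit where droplets touch and let lipid pass from the smaller to the larger one. Hydrolysis begins with ATGL, encoded by Pnpla2, whose activator CGI-58, encoded by Abhd5, is held by perilipin 1 until a β-adrenergic signal releases it. Hormone-sensitive lipase, encoded by Lipe, acts on the diglyceride that ATGL makes.

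Total counts were between 2679785 and 4097953 per library, with mitochondrially encoded transcripts taking 23.4% to 32.1%. Cd36 itself averaged 2918 ± 454 normalized counts over WT libraries against 2087 ± 216 over Cd36KO libraries (mean ± SD, 4 per group, log2 difference -0.48, DESeq2 adjusted p = 0.0602), and all 4 Cd36KO values lay below the WT values. One Cd36KO count column carries no replicate number and is called the unnumbered Cd36KO library. The labels name the stromal vascular fraction as cell type, yet the adipocyte gene Adipoq had 2458 to 6294 normalized counts per library and Ucp1 had 4235 to 12310, whereas the leukocyte gene Ptprc had at most 51.0 and the macrophage gene Adgre1 at most 11.8. The methods state male mice, but Xist had 772 to 1588 raw counts in every library and 4 Y-linked genes had none in 7 of 8 libraries. WT replicate 1 stood apart. Its skeletal muscle list of 15 genes summed to 59430 normalized counts, led by Acta1 at 9349 and Myh4 at 9887, and its Adipoq level was the lowest of the 8 libraries.

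The order of the genes was set by the mean normalized count per kilobase of exons. Cidea led at 11240, followed by Pnpla2 at 2760, Cidec at 947.1, Lipe at 661.9 and Plin2 at 612.3. Plin5 at 430.5, Plin1 at 427.9 and Plin4 at 270.3 followed, then Plin3 at 97.5, and Abhd5 was lowest at 46.5. From Cidec to Plin4, the values of neighbours in this order overlapped between libraries, whereas Cidea, Pnpla2, Plin3 and Abhd5 each lay apart from their neighbours in all 8 libraries. The position of reads along a transcript is not stated, so this order holds only if they cover whole transcripts.

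The region before the transcription start was read for the members with a RefSeq window (GRCm38.p6), which were 9 of 10. There was none for Cidea. The 250 bases upstream are shown for a perilipin whose genotype groups did not overlap (Plin3), for the lipase with the highest level (Pnpla2) and for the CIDE gene whose groups overlapped (Cidec), all from 5′ to 3′ on the strand of the gene. Capitals mark the GC box GGGCGG and the CCAAT box on either strand, which share no bases here.
Plin3, chr17:56290512-56290761, minus strand, upstream of a start that lies inside the GENCODE gene: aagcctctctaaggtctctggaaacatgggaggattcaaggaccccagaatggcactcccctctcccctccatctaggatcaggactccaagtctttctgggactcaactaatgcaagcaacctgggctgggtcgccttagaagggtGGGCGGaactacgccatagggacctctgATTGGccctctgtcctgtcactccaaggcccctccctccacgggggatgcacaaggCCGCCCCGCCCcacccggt
Pnpla2, chr7:141454938-141455187, plus strand: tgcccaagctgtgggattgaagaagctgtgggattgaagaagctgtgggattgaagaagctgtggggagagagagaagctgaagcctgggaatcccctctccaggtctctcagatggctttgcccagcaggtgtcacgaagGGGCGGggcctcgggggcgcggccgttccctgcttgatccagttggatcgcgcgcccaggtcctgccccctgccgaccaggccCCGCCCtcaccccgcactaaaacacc
Cidec, chr6:113435761-113436010, minus strand: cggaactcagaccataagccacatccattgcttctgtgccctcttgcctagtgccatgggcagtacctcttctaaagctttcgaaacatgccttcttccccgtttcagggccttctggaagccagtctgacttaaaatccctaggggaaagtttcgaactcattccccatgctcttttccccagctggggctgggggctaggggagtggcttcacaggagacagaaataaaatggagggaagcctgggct
The Plin3 window held 3 GC boxes and 1 CCAAT box, the Pnpla2 window held 2 GC boxes, and neither of the 2 Cidec windows held one. Among all 32851 windows of this length, 32.7% held a GC box and 33.9% a CCAAT box. TNAAGGTCA, the extended site bound by estrogen-related receptors, and AGGNCA repeated after 1 spacer base, the kind of direct repeat PPARs bind, matched none of the members' windows on either strand and 1.14% and 0.338% of all windows.

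Cidea rose in Cd36KO. This gene (ENSMUSG00000024526, chromosome 18, 67343604 to 67367785 on GRCm38) encodes the CIDE protein characteristic of brown fat. Its normalized counts were 7024, 10150, 7556 and 9072 in WT replicates 1 to 4, and 17900, 14590, 15190 and 18750 in the unnumbered Cd36KO library and replicates 2, 3 and 4. Every Cd36KO library lay above every WT library. The means were 8451 ± 1429 and 16610 ± 2027 (SD, n = 4 each), a 1.97-fold level (log2 0.97 ± 0.16 SE, 95% interval 0.65 to 1.30, DESeq2 adjusted p = 5.92e-06). The edgeR quasi-likelihood test gave log2 0.96 with an adjusted p of 0.0749, and the exact two-sided permutation p was 0.0286, the smallest that 4 against 4 libraries allow.

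Cidea was the member called higher, 1 of 10, and no member was called lower, where DESeq2 called 1.42% of all genes higher and 1.53% lower at an adjusted p of 0.05. At an unadjusted p of 0.05, 4 members were higher and 1 lower, beside 7.69% and 7.88% of all genes. Groups did not overlap for 2 members, Cidea and Plin3, both higher in Cd36KO, against 4.83% of all genes, and no member lay wholly below, against 3.93%. With edgeR no member was called, where that tool called 0.143% of all genes in either direction, and 5 members were at an unadjusted p under 0.05, beside 16.1% of all genes. On the deposited log2 values limma also called none, beside 0.0461% of all genes, and 4 members were at an unadjusted p under 0.05, beside 11.5%. The median log2 difference of the 10 members was 0.15 (5 above 0 and 5 below), and that of all genes tested was -0.01. Cidea took 24.7% to 33.9% of the members' summed counts in WT and 40.3% to 48.8% in Cd36KO, and the members together took 0.760% to 1.04% and 1.08% to 1.28% of all counts.

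**Figure D1:**
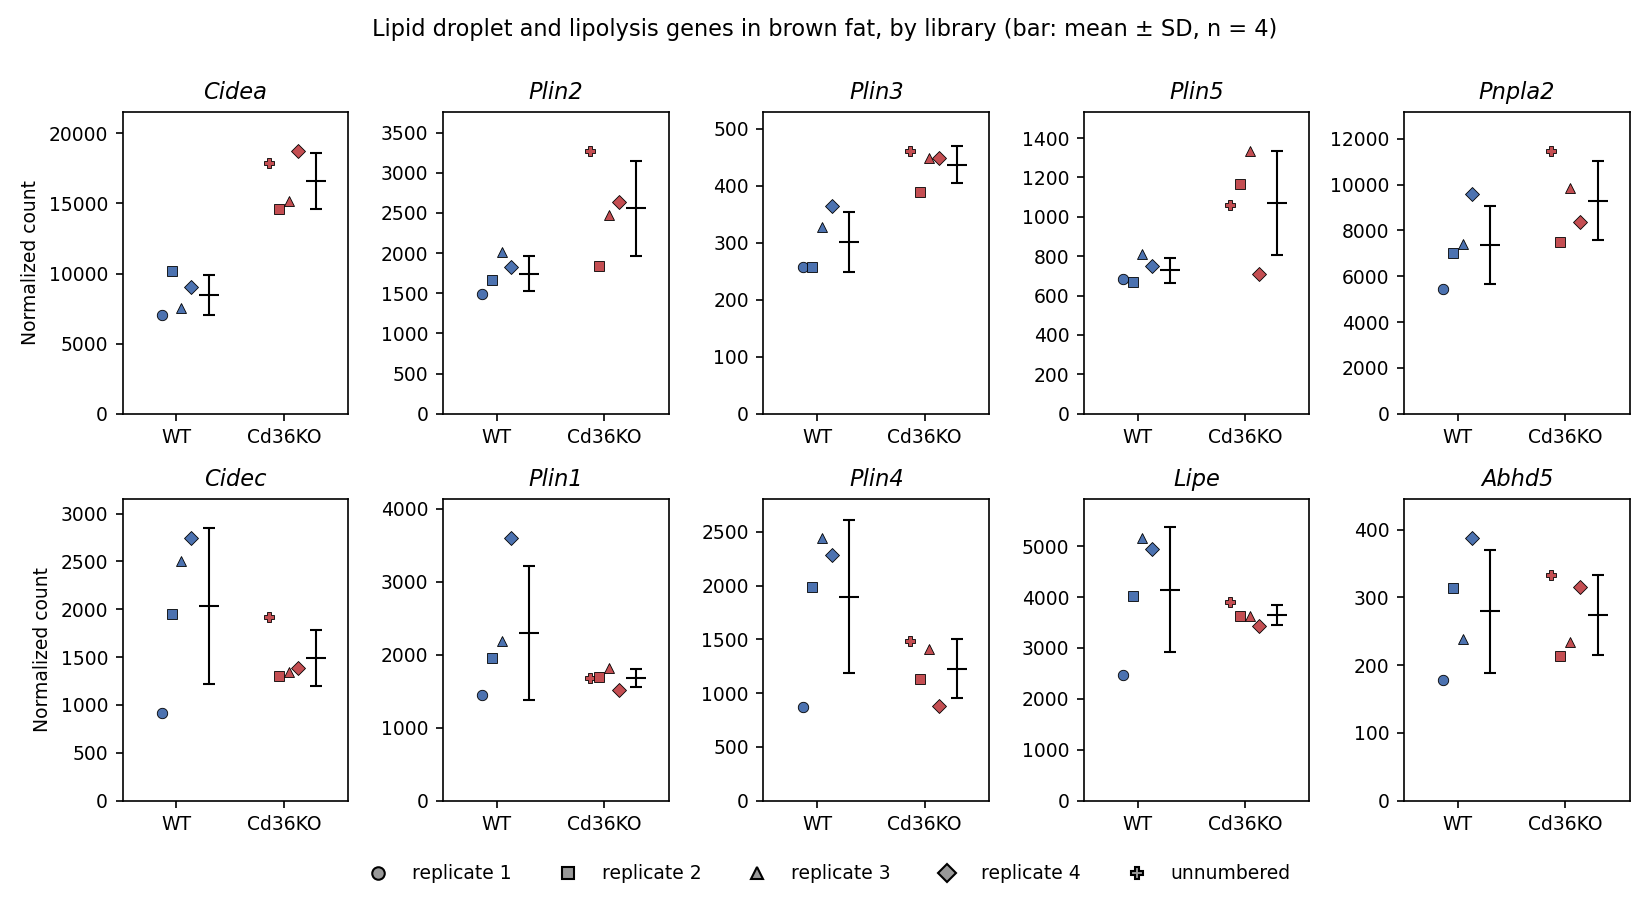
Normalized counts (vertical axis, from 0) of each gene in the 4 WT (blue) and 4 Cd36KO (red) libraries, with the marker giving the replicate and the bar the mean ± SD. Cidea and Plin3 do not overlap between the groups, and WT replicate 1 is the lowest WT value for every gene but Plin3 and Plin5.

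Cidec, the other CIDE gene, encodes the protein that supports the large single droplet of white adipocytes. It had 913.5, 1950, 2508 and 2745 normalized counts in WT and 1921, 1304, 1341 and 1381 in Cd36KO, in the same library order. The groups overlapped, with WT replicate 1 below and the unnumbered Cd36KO library above 3 libraries of its own group. The log2 difference was -0.45 ± 0.28 SE (95% interval -0.999 to 0.10, DESeq2 adjusted p = 0.460). Without WT replicate 1 it was -0.69 with an adjusted p of 0.00989, and Cidec was then called lower, whereas without WT replicate 4 it was -0.27 (adjusted p = 0.596) and with the mean log2 level of 8 adipocyte genes as a covariate -0.09 (adjusted p = 0.812).

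Of the 5 perilipins, 3 had higher and 2 lower mean levels in Cd36KO, and none passed the test. Plin2, the coat protein found on droplets of most cell types, had 1486, 1662, 2008 and 1824 normalized counts in WT and 3273, 1835, 2480 and 2635 in Cd36KO. The groups overlapped through Cd36KO replicate 2, which lay below WT replicate 3. The log2 difference was 0.55 ± 0.19 SE (95% interval 0.18 to 0.92, DESeq2 adjusted p = 0.0832), and without Cd36KO replicate 2 it was 0.68 with an adjusted p of 0.0108. In the 6 numbered libraries alone, a fit chosen after seeing the data, it was 0.34 (adjusted p = 0.551). Plin3, a perilipin that moves between cytosol and nascent droplets, had 258.2, 257.4, 327.0 and 364.0 in WT and 461.3, 388.9, 448.0 and 448.5 in Cd36KO. All Cd36KO values lay above the WT values (log2 0.54 ± 0.17 SE, 95% interval 0.20 to 0.87, DESeq2 adjusted p = 0.0549, exact two-sided permutation p = 0.0286). With TMM factors in DESeq2 the adjusted p was 0.0375, and without WT replicate 4 it was 0.00610. Plin3 was not called with edgeR (adjusted p = 0.153) or with limma on the deposited log2 values (adjusted p = 0.215). In the 6 numbered libraries alone the DESeq2 adjusted p was 0.370.

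Plin5 encodes the perilipin of oxidative tissues, which links droplets to mitochondria. Its normalized counts were 684.2, 670.1, 809.2 and 750.8 in WT and 1058, 1169, 1335 and 711.6 in Cd36KO. Cd36KO replicate 4 lay within the WT range and the other 3 libraries lay above it. The log2 difference was 0.55 ± 0.20 SE (95% interval 0.17 to 0.94, DESeq2 adjusted p = 0.101), and without Cd36KO replicate 4 it was 0.71 with an adjusted p of 0.00678. With the muscle score as covariate it was 0.34 (adjusted p = 0.599).

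Plin1, the perilipin of mature adipocytes that holds CGI-58 at rest, had 1450, 1959, 2181 and 3600 normalized counts in WT and 1683, 1701, 1824 and 1519 in Cd36KO. The Cd36KO values lay close together within the wide WT range (log2 -0.45 ± 0.24 SE, 95% interval -0.92 to 0.02, DESeq2 adjusted p = 0.351). Without WT replicate 4, the highest value, the difference was -0.15 (adjusted p = 0.639). Plin4, a perilipin of adipocyte droplets, had 867.5, 1991, 2443 and 2280 in WT and 1486, 1127, 1412 and 884.7 in Cd36KO. WT replicate 1 was the lowest value of all 8 and the other 3 WT libraries lay above every Cd36KO library. The log2 difference was -0.63 ± 0.28 SE (95% interval -1.18 to -0.08, DESeq2 adjusted p = 0.233). Without WT replicate 1 it was -0.87 with an adjusted p of 5.82e-04, and Plin4 was then called lower.

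In the fit without WT replicate 1, 1 member was called higher (Cidea, log2 0.90) and 2 lower (Cidec and Plin4), beside 1.06% and 2.29% of all genes. Muscle genes and adipocyte genes moved with that library, and their part in the difference was not tested.

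Plin4 and Plin5 are neighbours on chromosome 17, in the same orientation, separated by 1797 bases with no protein-coding gene between them. Plin3 lies 159879 bases further on, past 7 protein-coding genes. The log2 ratio of Plin5 to Plin4 counts, examined after the values were seen, was -0.34 in WT replicate 1, between -1.60 and -1.57 in the other 3 WT libraries, and between -0.49 and 0.05 in Cd36KO. WT replicate 1 lay within the Cd36KO range, so the groups overlapped.

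No gene of the lipolysis step passed the test. Pnpla2 had 5442, 7022, 7424 and 9575 normalized counts in WT and 11470, 7506, 9850 and 8385 in Cd36KO. The groups overlapped through WT replicate 4, and the other 3 WT libraries lay below every Cd36KO library (log2 0.34 ± 0.20 SE, 95% interval -0.05 to 0.73, DESeq2 adjusted p = 0.421). The log2 difference was 0.49 without WT replicate 4 (adjusted p = 0.0769), 0.22 without WT replicate 1 (adjusted p = 0.706) and 0.22 without the unnumbered Cd36KO library (adjusted p = 0.876). Lipe had 2463, 4017, 5161 and 4943 in WT and 3905, 3626, 3626 and 3425 in Cd36KO. All Cd36KO values fell between WT replicates 1 and 2 (log2 -0.19 ± 0.21 SE, 95% interval -0.60 to 0.23, DESeq2 adjusted p = 0.753). The difference was -0.37 without WT replicate 1, -0.06 without WT replicate 3 and -0.09 without WT replicate 4, with no call. Abhd5 had 178.7, 313.4, 238.8 and 387.8 in WT and 333.1, 214.0, 234.2 and 315.7 in Cd36KO, with a log2 difference of -0.03 ± 0.25 SE (95% interval -0.52 to 0.47, DESeq2 adjusted p = 0.978). These intervals allow a change in either direction for all 3 genes. Of the exonic bases of Lipe 15.6%, and of Abhd5 15.9%, overlap a gene on the opposite strand with 115 and 0 counts over all libraries, and the strand setting of the counting is not stated.

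**Figure D2:**
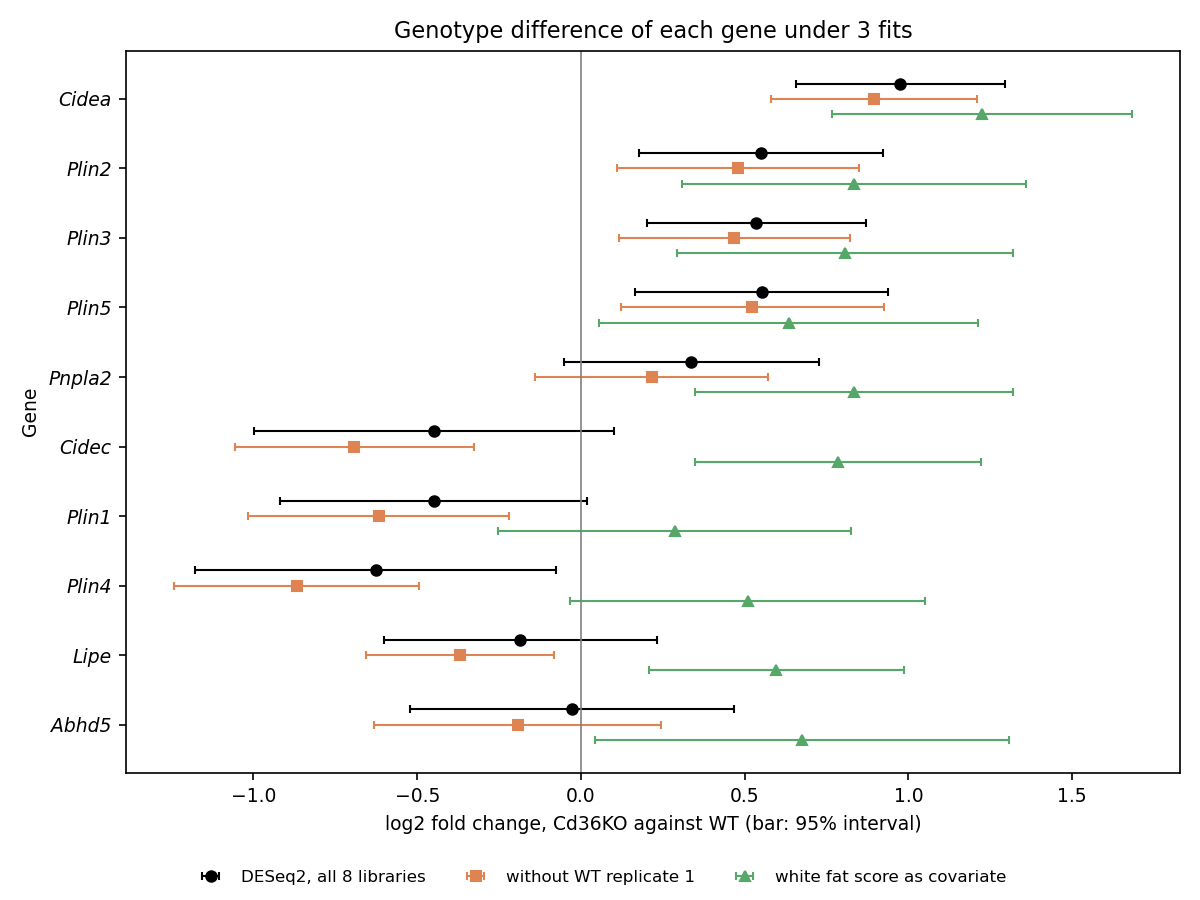
Log2 fold change of Cd36KO against WT (horizontal axis) for each gene, with 95% intervals, from DESeq2 with all 8 libraries (black circles), without WT replicate 1 (orange squares) and with the white fat score as a covariate (green triangles). Cidea lies above 0 in all 3 fits, and Cidec, Plin1, Plin4, Lipe and Abhd5 lie below 0 in the first 2 fits and above it in the third.

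A list of 41 further genes of droplets and lipolysis was examined, of which 38 were tested. Clstn3 and Miga2 rose and none was called lower, beside 1.42% and 1.53% of all genes, and the median log2 difference was -0.06. At an unadjusted p of 0.05, 5 were higher and 8 lower, beside 7.69% and 7.88% of all genes. By edgeR 0 of the list were called, with 12 at an unadjusted p of 0.05, beside 16.1% of all genes. Clstn3, whose adipocyte form limits droplet fusion by CIDE proteins, had a mean normalized count of 398.0 ± 77.9 for WT against 645.1 ± 132.7 for Cd36KO (SD, n = 4 each, log2 0.69, DESeq2 adjusted p = 0.0313), and its groups overlapped. The counts do not separate its isoforms. Miga2, which tethers mitochondria to droplets, was 227.8 ± 19.9 and 358.6 ± 71.8 (log2 0.65, DESeq2 adjusted p = 0.0246), with no overlap. Both lost their call when WT replicate 2, WT replicate 3 or the unnumbered Cd36KO library was left out, Miga2 also without WT replicate 1 or Cd36KO replicate 4, and Clstn3 also without Cd36KO replicate 3. Neither was called with the replicate number as a block (DESeq2 adjusted p = 0.0627 for Clstn3 and 0.724 for Miga2). With the white fat score as covariate Clstn3 fell to 0.41 (adjusted p = 0.419), and with the muscle score Miga2 had an adjusted p of 0.0782. Both were called with the adipocyte score.

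The inhibitors of ATGL were among those that did not pass. G0s2 lay between 199.9 and 680.5 normalized counts in WT, between 70.2 and 418.7 in Cd36KO (log2 -0.84 ± 0.65 SE, DESeq2 adjusted p = 0.584), and Hilpda from 33.4 to 61.3 and from 51.8 to 61.3 (log2 0.36, adjusted p = 0.592). Their intervals were too wide to give a direction. Mgll, which completes lipolysis at the monoglyceride, differed by log2 -0.27 (adjusted p = 0.509), and in the 6 numbered libraries alone, by -0.49 (adjusted p = 0.0433). With the replicate number as a block in these 6 libraries the DESeq2 adjusted p was 0.116. With the white fat score as covariate the Mgll difference was 0.22 (adjusted p = 0.608). With genotype as the only term and all 8 libraries, none of the 7 hydrolases of this list, Mgll included, was called. Ces1f, a carboxylesterase, differed by log2 -0.52 in that fit (DESeq2 adjusted p = 0.670). With the white fat score as covariate Ces1f turned to 1.67 and was called (adjusted p = 0.0392), beside 6.73% of all genes called higher. For the lysosomal lipase Lipa, singled out after its values were seen, all Cd36KO libraries lay above WT, as for 4.83% of all genes. The log2 difference of Lipa with genotype as the only term was 0.41 (DESeq2 adjusted p = 0.154).

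Genes of droplet formation gave 1 call of 8, that of Clstn3, beside 1.42% of all genes called higher. Bscl2, which encodes seipin at the site of droplet budding, had a log2 difference of -0.03 (DESeq2 adjusted p = 0.968), and Dgat2, which makes triglyceride, one of 0.23 (adjusted p = 0.752). Cideb, the CIDE gene of liver, had at most 20.5 normalized counts in any library (log2 -0.18, adjusted p = 0.916). None of these 3 passed the test with genotype as the only term and all 8 libraries. The Dgat2 difference was 0.002 without WT replicate 1, and with the adipocyte and white fat scores as covariates it was 0.53 and 1.31, both called (adjusted p = 0.0284 and 5.03e-07). With the white fat score Bscl2 turned to 0.77 and was called (adjusted p = 0.0307).

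Among 10 tested genes of hormonal control none was called with genotype as the only term and all 8 libraries. Adrb3, the β3-adrenergic receptor through which noradrenaline starts lipolysis in brown fat, had 238.3, 1031, 900.9 and 1490 normalized counts in WT and 247.3, 310.7, 275.1 and 382.1 in Cd36KO. WT replicate 1 was the lowest of the 8 libraries, and the other 3 WT libraries lay far above all Cd36KO libraries (log2 -1.59 ± 0.52 SE, DESeq2 adjusted p = 0.0614). Without WT replicate 1 Adrb3 was called lower (log2 -1.91, DESeq2 adjusted p = 3.97e-16), as it was with the adipocyte score as covariate (log2 -0.95, adjusted p = 0.00233), whereas with the white fat score the difference was 0.35 (adjusted p = 0.581). Pde3b, the phosphodiesterase through which insulin lowers cAMP, differed by log2 -0.48 (DESeq2 adjusted p = 0.159). It was also called lower without WT replicate 1 (log2 -0.61, adjusted p = 0.0167) and with the muscle score as covariate (log2 -0.75, adjusted p = 0.0423). With the white fat score the Pde3b difference was -0.006 (adjusted p = 0.992). Of the exonic bases of Adrb3, 24.9% overlap a gene on the opposite strand. All 3 genes that handle the released products had lower means, without a call with genotype as the only term and all 8 libraries. In 2 of them, singled out after their values were seen, all Cd36KO libraries lay below the WT libraries, as for 3.93% of all genes, namely Fabp4, the fatty acid carrier of adipocytes (log2 -0.73, adjusted p = 0.0762), and Cav1, the coat protein of caveolae (log2 -0.36, adjusted p = 0.187). Fabp4 was called lower without WT replicate 1 (log2 -0.79, DESeq2 adjusted p = 0.0387), without Cd36KO replicate 2 (log2 -0.85, adjusted p = 0.0338) and with the muscle score (log2 -1.002, adjusted p = 0.0489).

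Ratios of 2 genes within a library do not depend on how libraries are scaled to each other, and 8 pairs were compared. The log2 ratio of Cidea to Cidec was 2.94, 2.38, 1.59 and 1.73 in WT and 3.22, 3.48, 3.50 and 3.76 in Cd36KO. The ratio was higher in every Cd36KO library than in every WT library, by 2.52-fold on average (log2 difference 1.33, exact two-sided permutation p = 0.0286, adjusted over 8 pairs 0.114). Plin2 to Plin1 was 0.04, -0.24, -0.12 and -0.98 in WT and 0.96, 0.11, 0.44 and 0.79 in Cd36KO, likewise without overlap (difference 0.90, exact permutation p = 0.0286, adjusted 0.114). The smallest p this design allows did not pass the threshold after adjustment over 8 pairs.

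Plin5 to Plin1 differed by 0.89 and Lipe to Pnpla2 by -0.48 (exact two-sided permutation p = 0.0571 and adjusted 0.114 for both), each with overlapping groups. Abhd5 to Pnpla2, the activator against its lipase, differed by -0.34, Plin1 to Abhd5 by -0.38, G0s2 to Pnpla2 by -1.36 and Plin4 to Plin1 by -0.18 (exact two-sided permutation p of 0.143, 0.171, 0.171 and 0.543). These 4 ratios overlapped between the groups, and the G0s2 ratio spread from -7.35 to -4.32 among Cd36KO libraries alone.

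**Figure D3:**
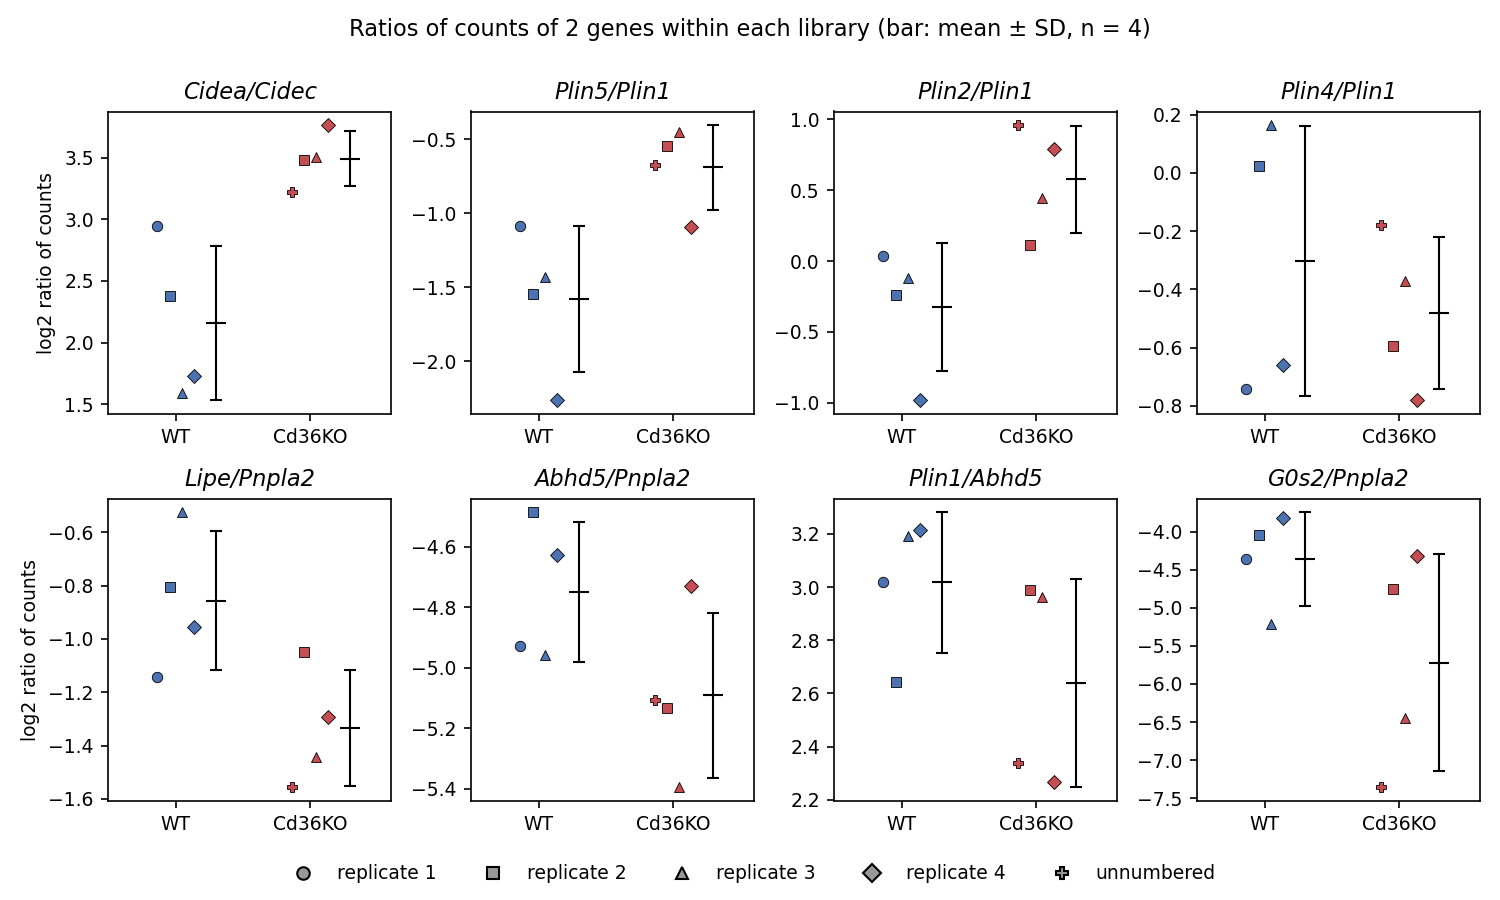
Log2 ratio of the counts of 2 genes within each library (vertical axis, a scale per panel) for 8 gene pairs, in 4 WT (blue) and 4 Cd36KO (red) libraries, with bars for the mean ± SD. The Cidea to Cidec and Plin2 to Plin1 ratios do not overlap between the groups, and the other 6 pairs do.

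Members differed in how closely they followed Adipoq, a secreted protein of all adipocytes. In the log2 ratio of a member to Adipoq, examined after the values were seen and given without a test, Lipe stayed between -0.38 and 0.00 over all 8 libraries, WT replicate 1 included. The range of this ratio over the 8 libraries was 0.38 for Lipe and 0.55 for Cidec, against 1.98 for Cidea, 1.36 for Plin5 and 1.22 for Plin2. Relative to Adipoq, Cidea was between 0.26 and 1.51 in WT and between 1.90 and 2.24 in Cd36KO, and Plin4 was between -1.503 and -1.304 in WT and between -2.16 and -1.52 in Cd36KO. These were the members without overlap on this scale, Plin4 only by the gap from -1.516 to -1.503. The share of all genes without overlap on this scale was not determined. Plin3 overlapped here through WT replicate 1, at -3.25, whereas the other WT libraries lay between -4.34 and -3.95 and Cd36KO between -3.33 and -3.14.

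Across the 8 libraries, Pearson's r of log2 normalized counts between Lipe and Adipoq was 0.98, and 0.98 again for deviations from the group means. For Cidec and Adipoq both values were 0.95, and for Plin4 0.90 and 0.93. Cidea and Adipoq gave -0.06 over all values and 0.47 over deviations. Cidea, Plin2, Plin3, Plin5 and Pnpla2 correlated with each other at 0.49 to 0.87 (10 pairs, median 0.73), and Cidec, Plin1, Plin4, Abhd5 and Lipe at 0.47 to 0.96 (10 pairs, median 0.78), a grouping made after the values were seen. Between these sets the median was 0.05 over 25 pairs. After removal of the group means the median was 0.34 within the first set, 0.78 within the second and 0.59 between them. The first set holds the members with a log2 difference above 0 and the second those below 0. A low correlation between the sets over all values, and not over the deviations, follows in part from that grouping. With Ucp1, which encodes the uncoupling protein of brown fat, r was 0.81 for Cidea and 0.84 for Plin3, and 0.16 and 0.46 over deviations. All values of a library share its depth and scaling, and the 2 groups lie apart for several of these genes.

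**Figure D4:**
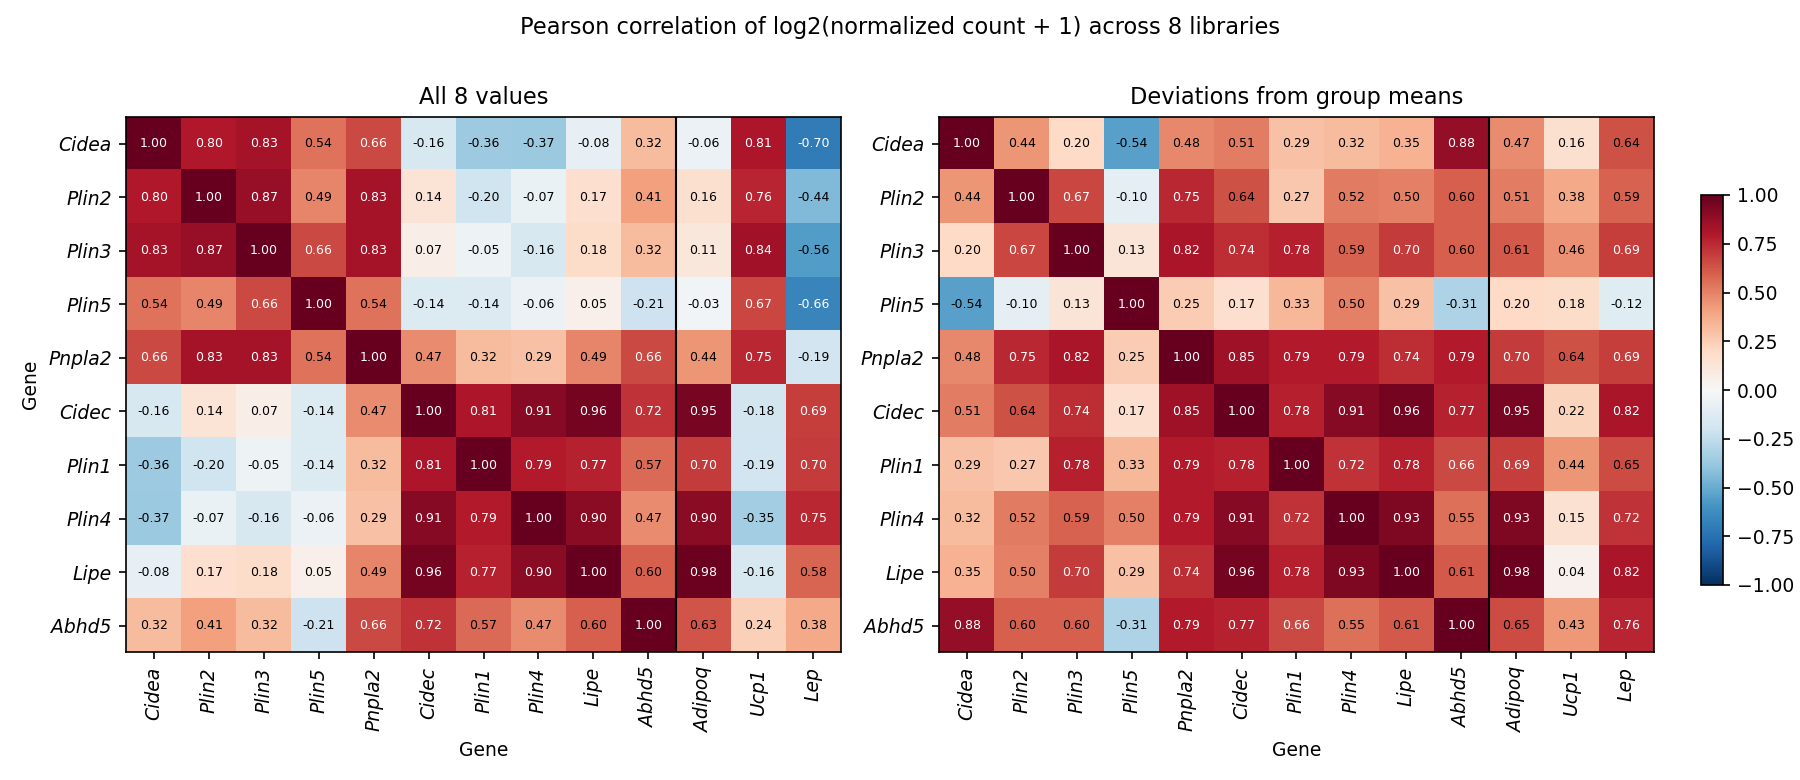
Pearson's r (color, from -1 to 1, and printed in each cell) of log2 normalized counts across 8 libraries between the 10 members (rows) and the same genes plus Adipoq, Ucp1 and Lep (columns). The left panel uses all 8 values and the right panel the deviations from the group means, where the pale block between the gene sets seen on the left, with a median of 0.05, has a median of 0.59.

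The genes with the pattern most like that of a member were sought among 5527 genes with a mean of at least 50 normalized counts. For Cidea these were Synj2bp, Rnf123, Id2, Rala and Cycs, with r between 0.966 and 0.984 over 8 libraries. Id2 encodes a transcriptional inhibitor and Cycs encodes cytochrome c. For Plin1 they were Pfkfb3, Fgfrl1, G6pc3, Cd1d1 and Rnf10, with r from 0.933 to 0.974. For Plin5 they were Zbtb46, Idh2, Gss, Pes1 and Adck2, from 0.904 to 0.961, and for Pnpla2 Papss1, Acy3, Ciao2a, Stard7 and Lsm4, from 0.969 to 0.977. When deviations from the group means were used, 0 of the 5 remained for Cidea, 1 for Plin1 and 2 each for Plin5 and Pnpla2. The named genes still had r over deviations of 0.732 to 0.868 with Cidea, 0.914 to 0.979 with Plin1, 0.822 to 0.959 with Plin5 and 0.956 to 0.976 with Pnpla2.

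Of the marker lists examined, those of white fat and brown fat held called genes. The white fat list gave 7 tested genes, all lower in Cd36KO and 5 of them called, beside 1.53% of all genes called lower, with Lep at 35.2, 118.1, 136.4 and 150.4 normalized counts in WT and 17.8, 11.5, 21.5 and 28.2 in Cd36KO. The summed level of the 10 listed genes lay between 773.6 and 5715 for WT and between 712.3 and 1179 for Cd36KO libraries. Hoxc10 and Tcf21 were at 0 in all libraries. The brown fat list gave 3 calls of 13, all higher, beside 1.42% of all genes, with sums of 13880 to 16930 for WT against 20870 to 26650 for Cd36KO, and Ucp1 higher by log2 0.82. With edgeR none of the brown fat genes and 3 of the white fat genes were called, beside 0.143% of all genes, with 7 genes of each list at an unadjusted p under 0.05, beside 16.1%. The adipocyte list gave no call of 8 and summed to 34960 to 94980 in WT, with WT replicate 1 the lowest, and to 49240 to 59350 in Cd36KO. In bulk tissue, fewer cells of a type and less RNA per cell cannot be told apart.

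The muscle list gave no call of 15, with all 15 lower in Cd36KO, and summed to 1004 to 59430 in WT and 364.1 to 8801 in Cd36KO. Macrophage genes gave no call of 9 and summed to 827.9 to 1148 in WT and 776.3 to 1089 in Cd36KO, and stromal vascular genes gave no call of 9 and summed to 969.4 to 1503 and 1117 to 1566. By unadjusted p under 0.05 these 3 lists held 8, 2 and 0 genes, all lower, beside 7.88% of all genes. With edgeR 0 were called in each, and 13, 2 and 1 were at an unadjusted p under 0.05, beside 16.1% of all genes.

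With the white fat score (the mean log2 level of its genes) of each library as a covariate, 6 members were called higher (Cidea, Cidec, Plin2, Plin3, Pnpla2 and Lipe) and none lower, beside 6.73% and 1.79% of all genes. The log2 difference was then 1.22 for Cidea, 0.84 for Pnpla2 and 0.79 for Cidec, and Cidec, Plin1, Plin4, Lipe and Abhd5 changed sign. The score was 4.40 in WT replicate 1 and 6.11 to 6.57 in the other 3 WT libraries, against 4.03 to 4.59 in Cd36KO, so that 1 WT library shared the Cd36KO range. With an adipocyte score as covariate, an alternative chosen after seeing the data, 4 members were called higher (Cidea, Plin2, Plin3 and Plin5) and none lower, beside 4.73% and 2.45%. Cidea was called higher in both of these fits, in the fit with genotype as the only term and in each fit that left out 1 library.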

How the data were processed

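Bulk RNA-seq of BAT was compared between 4 WT and 4 Cd36KO libraries, grouped by their labels. The study's methods name bbduk for trimming, STAR for alignment to mm10 and HTSeq-count for counting the single-end reads. The submitters' processing notes name Trimmomatic, HISAT2 and DESeq2 instead. Strand setting, annotation release and use of molecular identifiers are not given in the sources used here. The deposited counts are whole-number reads per gene, not normalized. A second deposited table holds log2 values that the authors made. It was checked to equal log2(count divided by a size factor + 1), and served an alternative test only. Of 31053 rows 31011 matched GENCODE M21 (GRCm38), and the other 42 held 296 counts.

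The main test was DESeq2 1.42.0 (Wald test, genotype as the only term, R 4.3.3) over all genes, with Benjamini-Hochberg adjustment at 0.05. Normalized counts are counts divided by its size factors, and fold changes are unshrunken. Exact two-sided permutation tests used the 70 arrangements of 4 against 4 libraries (SciPy 1.17.1). Scores are means of log2(normalized count + 1) over a list.

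Alternatives were edgeR 4.0.16, TMM factors, a minimum of 10 counts in 4 libraries, no independent filtering, the replicate number as a block, white fat, muscle and adipocyte scores as covariates, limma 3.58.1 on the deposited log2 values, and leaving out each library. On simulated counts 200 genes were changed 3-fold between WT and Cd36KO. There DESeq2 recovered 100% among 9644 genes with 7.83% false calls, and edgeR 96% among 9784 with 2.04%. The spread was drawn from the estimates of DESeq2, and every member differed by less than 3-fold. Recovery of differences as small as those of the members was not tested. Figures were drawn with matplotlib 3.10.9.

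The members and lists were chosen with earlier results of these data known. Named genes are the 10 members, Cd36, G0s2, Hilpda, Mgll, Bscl2, Dgat2, Cideb and Adrb3, other pathway genes called by DESeq2 (at most 12, lowest adjusted p first), the 5 genes most correlated with Cidea, Plin1, Plin5 and Pnpla2, and the markers Ucp1, Adipoq, Lep, Acta1, Adgre1 and Ptprc. Myh4, Hoxc10, Tcf21 and other genes outside this rule were named after their values were seen.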

Additional observations from a re-analysis of the deposited data

Results flagged for a closer look

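In the Cd36KO group, 1 library stood far from the other 3 for 2 genes. The log2 normalized count of Cidec was 10.91 in the unnumbered Cd36KO library and 10.35 to 10.43 in the others. That of Plin3 was 8.60 in Cd36KO replicate 2 and 8.81 to 8.85 in the others. In all, 36 groups of 4 libraries were examined, of which chance flags about 1 in 20, or 1.8. Without the unnumbered Cd36KO library or Cd36KO replicate 2, respectively, neither gene gained a call.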

How the results depend on the processing

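Cidea kept its direction and call in 16 of 18 alternatives, with log2 differences from 0.86 to 1.22 and adjusted p from 4.04e-07 to 0.225, and lost the call with edgeR and limma. Depth was lowest for Abhd5 and Plin3, with at most 414 and 588 raw counts in a library. Members called higher numbered 0 with edgeR and limma, 2 with TMM factors (3.92% of all genes called), 4 with the adipocyte score and 6 with the white fat score, and 1 to 2 with 1 library left out. Members called lower numbered 2 (Cidec and Plin4) with the replicate block (1.81% of all genes called) and also without the block in the same 6 numbered libraries (2.29%), and 0 to 2 with 1 library left out. Pathway genes called higher numbered 0 with edgeR, limma and the replicate block, 1 without the block, with the muscle score or without independent filtering, and 5 with the white fat score. Those called lower numbered 1 (Adrb3) with the block or the adipocyte score, and 2 without the block (Adrb3 and Mgll) or with the muscle score (Fabp4 and Pde3b). With 1 library left out, these counts were 0 to 3 higher and 0 to 3 lower. All genes called numbered 284, and 14 with edgeR, 8 with limma, 171 without independent filtering, 590 with the white fat score, 184 with the muscle score and 69 to 507 with 1 library left out. Signs reversed with the white fat score for Cidec (0.79), Plin1 (0.29), Plin4 (0.51), Abhd5 (0.68) and Lipe (0.60), and with the adipocyte score for Lipe (0.032) and Abhd5 (0.14). Abhd5 also reversed with the muscle score (0.13) and limma (0.006), and spanned -0.19 to 0.17 with 1 library left out. Of the closest 5 genes, 0 remained for Cidea, 1 for Plin1 and 2 each for Plin5 and Pnpla2 over deviations from group means. The cause of these moves was not tested. Same-numbered libraries correlated at -0.127, 0.422 and 0.141 (replicates 2, 3 and 4), and differently numbered pairs at -0.431 to 0.31. So few pairs cannot settle whether same-numbered libraries share more than a number. No ratio changed sign. With 1 library left out, the G0s2 to Pnpla2 difference ran from -1.83 to -0.82 and that of Plin4 to Plin1 from -0.32 to -0.02.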
